A study of Arabidopsis thaliana with 6 samples.

Results

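The genes described here are the core and linker histone genes of Arabidopsis, 43 listed loci that encode H4, H3.1, H3.3, canonical H2A, H2A.X, H2A.W, H2A.Z, H2B and H1. They were chosen by locus from a list, with earlier results of these data known. The deposited expression table holds 24379 genes, among them 42 of the 43, and 40 of these passed the filter on low values (3 or more samples with an FPKM of 1 or higher). AT5G02570, an H2B gene, was not analysed here. HTA4 and AT1G08170 stayed below the filter. RNA was sequenced from roots of 7-day-old Col-0 wild type (WT) seedlings. For growing seedlings the study's methods name Murashige and Skoog medium or hydroponic dilute MGRL solution, and tie neither to the RNA samples. There were 3 Al samples, exposed to 25 µM AlCl3 for 3 h, and 3 control samples without Al. The dose, the exposure time and the use of root tips rather than whole roots come from the study's methods, since the labels name the tissue only as roots. Nothing in the sources used here says whether the 3 samples of a group were separate cultures, so p-values measure the spread between these samples, which may be technical.

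DNA in the nucleus is wound around cores made of the histones H2A, H2B, H3 and H4, and the linker histone H1 binds where the DNA enters and leaves. Canonical histones, including H3.1, are made mainly in S phase to package new DNA, and are loaded onto it behind the replication fork. Variants such as H3.3 and H2A.Z are also made and exchanged outside S phase, often at transcribed genes. In a root tip the dividing cells of the meristem are the main place of DNA replication, while cells of the transition and elongation zones have left mitosis. Plant histone transcripts carry a poly(A) tail, unlike most animal ones.

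Many of the proteins behind these transcripts are identical. All 8 H4 genes encode 1 protein of 103 residues, although their coding sequences are 78.8% to 98.1% identical. The 5 H3.1 genes encode 1 protein of 136 residues and the 3 H3.3 genes encode another of the same length. The H3.1 and H3.3 proteins differ at 4 of the 136 positions. The 4 canonical H2A proteins are 92.4% to 95.4% identical, and the 2 H2A.X proteins, HTA3 and HTA5, are 98.6% identical. The C-terminal phosphorylation motif that defines H2A.X was found in HTA3 and HTA5 and in no other listed H2A. A transcript level of an H4 or H3.1 gene is therefore a part of the supply of 1 protein, whereas the H2A, H2B and H1 genes each give a protein of their own. Of the 43 genes, 23 have no intron in the annotation, among them all 5 H3.1 genes and all 11 H2B genes, while the 3 H3.3 genes and all 13 H2A genes have introns.

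The stretches upstream of these genes are shown because they hold short elements known from plant histone promoters. Searched on both strands in the 250 bases before the annotated gene start of TAIR10.1 were the octamer CGCGGATC, the hexamer ACGTCA, and the E2F-type elements TTTCCCGC and TTTGGCGC. None of these motifs contains another. The octamer was found in 10 of the 43 histone promoters (23.26%), against 35 of 24172 promoters of protein-coding genes in the table (0.14%). These were 3 of the 5 H3.1 genes, 2 of 8 H4, 1 of 3 H3.3, 2 of 4 canonical H2A, 1 of 3 H2A.W and 1 of 3 H1 genes. The hexamer was found in 11 of the 43 histone promoters (25.58%), against 1910 of the 24172 (7.9%). These were 8 of the 11 H2B, 2 of the 5 H3.1 and 1 of the 3 H3.3 genes. The E2F-type elements were found in AT3G45930 and AT3G46320 only among the histone genes, against 1.0% of all promoters. A match describes these letters in this window and shows no bound site. In the sequences below, read from TAIR10.1 and written in the direction of the gene, capitals mark the motif matches, and each ends at the base before the gene start.
AT5G10400 promoter, H3.1, chr5:3270958-3271207, minus strand, with an octamer and a hexamer: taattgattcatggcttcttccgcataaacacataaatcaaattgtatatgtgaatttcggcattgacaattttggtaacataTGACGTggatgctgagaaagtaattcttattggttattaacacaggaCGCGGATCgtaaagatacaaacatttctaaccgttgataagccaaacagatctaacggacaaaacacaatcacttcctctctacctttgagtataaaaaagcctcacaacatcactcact
AT5G10390 promoter, H3.1, chr5:3269595-3269844, minus strand, with no match: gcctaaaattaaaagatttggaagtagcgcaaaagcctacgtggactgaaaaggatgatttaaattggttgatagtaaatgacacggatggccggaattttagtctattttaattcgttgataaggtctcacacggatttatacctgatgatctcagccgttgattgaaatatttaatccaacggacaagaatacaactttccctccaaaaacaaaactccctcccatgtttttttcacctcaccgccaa
HTA10 promoter, canonical H2A, chr1:18926561-18926810, plus strand, with 2 octamers: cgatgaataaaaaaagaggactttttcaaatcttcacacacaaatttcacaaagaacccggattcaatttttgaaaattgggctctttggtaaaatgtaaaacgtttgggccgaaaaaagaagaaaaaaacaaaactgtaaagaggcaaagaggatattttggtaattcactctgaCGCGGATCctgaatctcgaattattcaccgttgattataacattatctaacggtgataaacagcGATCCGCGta
HTA1 promoter, canonical H2A, chr5:22196037-22196286, plus strand, with no match: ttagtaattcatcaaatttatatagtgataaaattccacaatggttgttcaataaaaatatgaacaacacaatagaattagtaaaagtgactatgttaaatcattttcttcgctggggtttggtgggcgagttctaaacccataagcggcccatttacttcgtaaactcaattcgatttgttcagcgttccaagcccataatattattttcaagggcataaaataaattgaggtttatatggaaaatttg
AT5G10980 promoter, H3.3, chr5:3473571-3473820, minus strand, with 2 hexamers: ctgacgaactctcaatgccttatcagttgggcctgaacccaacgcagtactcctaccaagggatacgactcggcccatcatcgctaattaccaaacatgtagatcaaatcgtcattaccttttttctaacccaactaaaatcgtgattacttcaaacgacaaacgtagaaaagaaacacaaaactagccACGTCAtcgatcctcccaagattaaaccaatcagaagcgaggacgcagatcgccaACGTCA
HTB2 promoter, H2B, chr5:7652715-7652964, minus strand, with a hexamer: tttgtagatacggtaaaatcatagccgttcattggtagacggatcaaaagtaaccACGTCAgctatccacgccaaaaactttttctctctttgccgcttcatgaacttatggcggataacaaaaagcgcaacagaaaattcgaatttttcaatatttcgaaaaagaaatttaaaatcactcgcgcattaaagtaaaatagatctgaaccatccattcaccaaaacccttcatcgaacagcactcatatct
AT3G45930 promoter, H4, chr3:16883066-16883315, plus strand, with an E2F-type element: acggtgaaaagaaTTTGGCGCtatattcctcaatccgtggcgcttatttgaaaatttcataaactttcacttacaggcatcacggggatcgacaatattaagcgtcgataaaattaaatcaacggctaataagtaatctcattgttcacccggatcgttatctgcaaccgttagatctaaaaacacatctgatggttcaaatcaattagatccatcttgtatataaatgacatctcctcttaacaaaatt

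Levels are given as FPKM, fragments scaled to transcript length and to the mapped fragments of the sample, so that genes of different length can be set beside each other. The depth estimated from the steps of low values was 21850000 to 22000000 fragments per sample, and intervals of counting are not given because the counts themselves were estimated. The labels were checked on genes known to respond to Al. ALMT1, a malate transporter that Al induces, had 13.07, 15.70 and 17.43 FPKM in the Al samples, against 0.47, 0.73 and 0.50 in the control samples. Green tissue markers were low, with summed levels of 7.63 to 14.89 FPKM in Al and 7.46 to 10.71 FPKM in control samples over 4 genes. All 4 root cap markers were lower in Al, with sums of 10.46 to 12.89 FPKM against 24.48 to 29.43, and so were all 4 root hair markers, with sums of 16.68 to 19.39 FPKM against 41.61 to 45.43. Summed root meristem markers were 60.69 to 64.46 FPKM in Al and 58.95 to 62.37 FPKM in control samples, and of the 5 tested of 6, 1 was called higher and 2 lower. Over all genes tested, 21.3% were called higher and 38.5% lower, and 42.9% were lower in Al without overlap of the groups. No marker of these lists averaged 0 in either group. Their part in the histone results was not tested, and in such bulk samples fewer cells of a type and less RNA per cell cannot be told apart.

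After Al, most histone genes stood close to their control level while a few moved in each direction. The H2A genes HTA1 and HTA3 and the H3.3 gene AT5G10980 rose, by 91.9%, 50.2% and 36.5% on the log2(FPKM + 1) scale. The H3.1 genes AT3G27360 and AT5G10390 fell by 35.0% and by 32.5%. In the limma fit across all genes, at a Benjamini-Hochberg adjusted p under 0.05, 7 of the 40 tested histone genes were higher in Al, 6 were lower and 27 were not called. Over all 18463 genes tested, 59.8% were called, 21.3% higher and 38.5% lower. The 13 called histone genes were thus 32.5% of those tested, a smaller share than in the table as a whole.

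**Figure D1:**
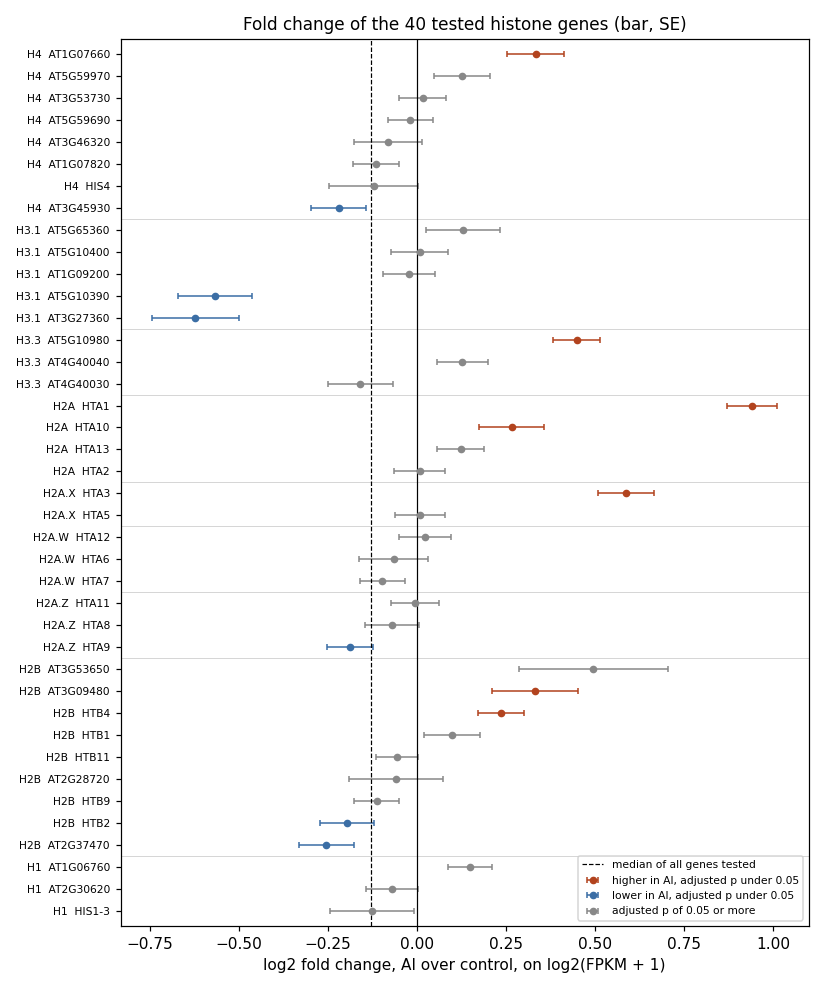
Log2 fold change (x axis, Al over control, on log2(FPKM + 1)) of the 40 tested histone genes, 1 row per gene, grouped by class; points are estimates, bars are SE, and the dashed line is the median of all genes tested, -0.13. The estimates run from -0.62 for AT3G27360 to 0.94 for HTA1, and 30 of the 40 lie within 0.25 of 0.

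The median log2 fold change of the 40 histone genes was -0.012, beside -0.13 over all genes tested. The median size of the change, disregarding direction, was 0.12 in the histone genes and 0.32 over all genes. The change was under 0.25 in 30 of the 40 histone genes (75.0%), against 40.7% of all genes tested. Histone genes are short, with a median transcript of 842 bases against 1718 bases over all genes tested. With the log2 values corrected for transcript length, the median of the histone genes was -0.20 beside -0.13 for all genes, 3 histone genes were called higher and 18 lower, and the background was 21.0% higher and 37.4% lower. With the samples scaled to a common median ratio, which moved the median of all genes to 0, 14 histone genes were called higher and 2 lower, with 29.1% and 27.0% of all genes. HTA1, HTA3 and AT5G10980 were higher, and AT3G27360 and AT5G10390 lower, past the threshold in each of the 16 refits. AT1G07660, an H4 gene, kept its call in 15 of the 16. The other 7 called genes each lost their call in at least 4 refits. The count of genes called lower was 3 without Al replicate 1, Al replicate 3 or control replicate 3 and 2 without control replicate 1, and that of genes called higher was 4 without Al replicate 2 or control replicate 2.

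**Figure D2:**
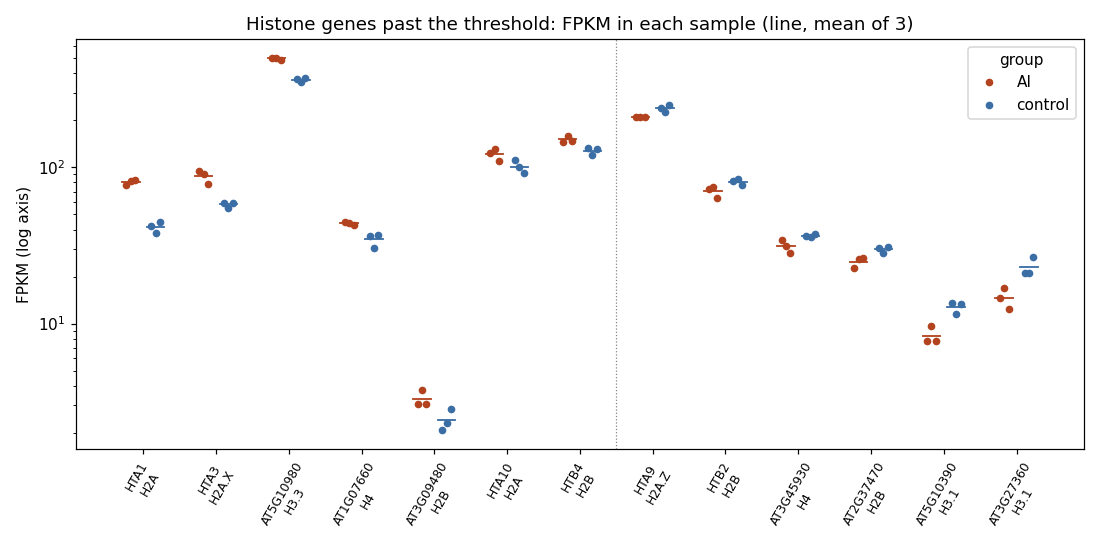
FPKM (y axis, log scale) of the 13 histone genes past the threshold, Al samples to the left of control samples; points are samples and lines are means of 3. The 7 genes left of the dotted line were higher in Al and the 6 to its right were lower; the groups of HTA10 overlap and those of the other 12 genes do not.

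H4, the partner of H3 in the nucleosome core, was measured through 8 genes, of which 1 rose, 1 fell and 6 were not called. AT5G59690 was the most abundant, with 107.95, 117.76 and 111.06 FPKM in Al and 115.54, 107.88 and 117.65 FPKM in control samples. The groups overlapped and its log2 fold change was -0.018 (SE 0.064, adjusted p = 0.824 by limma). AT1G07660 had 44.59, 44.26 and 42.55 FPKM in Al, against 36.25, 30.64 and 37.08 FPKM in control samples. Every Al sample was above every control sample, with a log2 fold change of 0.33 (SE 0.080, adjusted p = 0.00584 by limma), and after the correction for length this gene was not called (0.11, adjusted p = 0.257). AT3G45930 had 34.15, 31.48 and 28.13 FPKM in Al and 36.10, 35.87 and 37.41 FPKM in control samples. Its log2 fold change was -0.22 (SE 0.078, adjusted p = 0.0349 by limma), and the call was lost on leaving out any sample other than Al replicate 1.

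The H4 copies are alike enough for reads to be shared between them. Of the 50-base stretches of the AT1G07660 transcript, 26.75% also occur in AT1G07820, and 25.74% of those of AT3G45930 occur in AT3G46320, so these 4 genes are uncertain where the authors' counting split such reads. AT1G07820 had 72.51, 79.74 and 74.85 FPKM in Al and 85.81, 77.99 and 82.26 FPKM in control samples, in the opposite direction to AT1G07660 but not past the threshold (adjusted p = 0.158). The remaining H4 genes lay between 17.09 FPKM, in HIS4 in an Al sample, and 55.29 FPKM, in AT5G59970 in an Al sample. Summed over the 8 genes, H4 was 417.47 ± 20.5 FPKM in Al and 419.54 ± 9.73 FPKM in control samples (SD, n = 3 each), and the groups overlapped.

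H3.1, the replicative form of H3, was the class with the 2 clearest falls. AT3G27360 had 14.58, 16.79 and 12.45 FPKM in Al, against 21.20, 21.08 and 26.72 FPKM in control samples. Its log2 fold change was -0.62 (SE 0.12, adjusted p = 0.00202 by limma). AT3G27360 overlaps AT3G27380 on the same strand, and 35.59% of its 50-base stretches occur in another gene's transcript, mostly this one, so its level is uncertain where reads were split. AT3G27380 had 40.84, 41.77 and 35.76 FPKM in Al and 35.65, 35.15 and 29.41 FPKM in control samples, a change of 0.24 in the other direction that did not pass the threshold (adjusted p = 0.0507).

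AT5G10390 had 7.68, 9.60 and 7.72 FPKM in Al, against 13.48, 11.60 and 13.27 FPKM in control samples. The groups did not overlap, and the log2 fold change was -0.57 (SE 0.10, adjusted p = 0.00135 by limma). None of its 50-base stretches occurs in another gene. AT5G10390 lies 577 bases from AT5G10400 on chromosome 5, in the same orientation, and encodes the same protein. AT5G10400 had 37.32, 41.60 and 34.11 FPKM in Al and 38.79, 36.55 and 36.76 FPKM in control samples. Its log2 fold change was 0.0076 (SE 0.079, adjusted p = 0.941), so that of these neighbours the less abundant fell and the other was not called. As printed above, the window before AT5G10400 holds an octamer and a hexamer and that before AT5G10390 holds neither. The window before AT3G27360, the other H3.1 gene that fell, holds a hexamer and no octamer, and overlaps AT3G27380. A link between these motifs and the changes was not tested.

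The 2 most abundant H3.1 genes were not called. AT5G65360 had 91.55, 104.79 and 80.29 FPKM in Al and 93.30, 80.43 and 78.02 FPKM in control samples. AT1G09200, whose promoter window holds 2 octamers, had 72.49, 77.42 and 71.65 FPKM in Al and 81.70, 74.33 and 69.52 FPKM in control samples. Because the genes that fell are the least abundant of the class, the sum of H3.1 was 226.68 ± 22.1 FPKM in Al and 232.25 ± 14.0 FPKM in control samples, with overlapping groups.

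H3.3, the replacement form of H3 found at transcribed genes, was the most abundant class, and 1 of its 3 genes rose. AT5G10980 had 504.30, 500.23 and 488.45 FPKM in Al, against 365.83, 354.02 and 373.55 FPKM in control samples. The difference of 0.45 on the log2 scale (SE 0.065, adjusted p = 0.000357 by limma) stood well outside the spread of either group. AT4G40040 had 695.53, 682.89 and 696.84 FPKM in Al and 643.33, 606.82 and 649.57 FPKM in control samples, with no overlap but below the threshold (0.13, SE 0.072, adjusted p = 0.153). AT4G40030, which lies 42 bases from AT4G40040 on chromosome 4 in the same orientation, had 478.76, 464.42 and 420.04 FPKM in Al and 496.59, 466.54 and 561.30 FPKM in control samples (-0.16, adjusted p = 0.159). These 3 genes encode the same protein, and AT5G10980 supplied 30.3 ± 0.205% of the H3.3 FPKM in Al, against 24.2 ± 0.616% in control samples (SD, n = 3 each, exact permutation p = 0.1). This share was chosen after its values were seen.

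The H3.3 sum was 1643.8 ± 36.8 FPKM in Al and 1505.9 ± 78.5 FPKM in control samples, a ratio of 1.09. Every Al sample was above every control sample, and the exact two-sided permutation p of 0.1 is the smallest that 3 samples against 3 allow. Under quantile normalization the log2 ratio of these sums was -0.011, with the sign turned. H3.1 made up 12.1 ± 0.95% of the FPKM of H3.1 and H3.3 together in Al and 13.4 ± 0.897% in control samples (exact permutation p = 0.2). FPKM shares are shares of transcripts and say nothing of the amounts of protein.

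Other H3 genes were looked at from a separate list of 7, of which 3 were tested and 1 was called. CENH3, the centromeric H3, had 3.20, 3.80 and 3.65 FPKM in Al and 3.72, 3.93 and 2.97 FPKM in control samples. AT1G75600, an H3-like gene, had 4.13, 5.47 and 5.49 FPKM in Al, against 0.86, 0.70 and 1.02 FPKM in control samples. Its log2 fold change of 1.69 (adjusted p = 5.94e-06 by limma) was larger than that of any of the 40 histone genes, at a level below nearly all of them. AT1G75600 reached the filter only through its Al samples, and with an FPKM of at least 1 required in every sample it was not tested. Its estimated fragments ran from 9 to 70, so the size of the change is uncertain.

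Canonical H2A was the class in which all 4 estimates were above 0, and 2 of the genes rose. HTA1, also known as RAT5 for its part in Agrobacterium T-DNA integration, had 77.14, 81.17 and 83.52 FPKM in Al, against 41.99, 38.27 and 44.47 FPKM in control samples. The lowest Al sample was far above the highest control sample, and the log2 fold change was 0.94 (SE 0.071, adjusted p = 6.18e-06 by limma). No 50-base stretch of the HTA1 transcript occurs in another gene. Over the 16 refits its log2 fold change lay between 0.75 and 1.08. The window before HTA1 held none of the motifs searched.

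HTA10 had 123.34, 131.79 and 110.29 FPKM in Al and 112.04, 99.91 and 91.61 FPKM in control samples. It passed the threshold (0.27, SE 0.092, adjusted p = 0.0312) although the groups overlapped, and lost the call in 9 of the 16 refits. HTA13 had 45.26, 48.23 and 42.31 FPKM in Al and 40.63, 41.67 and 42.02 FPKM in control samples, and was not called (adjusted p = 0.137). HTA2 had 65.38, 72.50 and 70.01 FPKM in Al and 74.37, 65.42 and 67.04 FPKM in control samples, with a log2 fold change of 0.0082 that turned to -0.20 (adjusted p = 0.0196) after the correction for length. HTA13 overlaps the antisense gene AT3G20680, which fell to 5.50, 6.03 and 7.47 FPKM in Al, against 11.77, 12.58 and 12.99 FPKM in control samples. Whether the counting used strand is not given in the sources used here, so reads of such partners cannot be told apart.

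Summed canonical H2A was 316.98 ± 14.7 FPKM in Al and 253.15 ± 13.8 FPKM in control samples (SD, n = 3 each), a rise of 25.2% with no overlap (exact permutation p = 0.1, the smallest possible). Much of it came from HTA1, which made up 25.5 ± 1.59% of the class in Al, against 16.5 ± 1.46% in control samples, a share chosen after its values were seen.

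H2A.X is the H2A that is phosphorylated beside DNA breaks, and of its 2 genes HTA3 rose and HTA5 was not called. HTA3 had 94.50, 90.34 and 78.09 FPKM in Al, against 59.23, 55.05 and 59.26 FPKM in control samples. Its log2 fold change was 0.59 (SE 0.080, adjusted p = 0.000237 by limma). HTA5 had 50.91, 52.38 and 54.83 FPKM in Al and 56.80, 48.74 and 51.81 FPKM in control samples (0.0090, SE 0.071, adjusted p = 0.922). HTA3 was therefore well above HTA5 in Al samples and close to it in control samples. The antisense gene AT1G54680 overlaps HTA3 and was far lower, at 5.77 to 5.84 FPKM in Al and 6.69 to 9.76 FPKM in control samples. Summed H2A.X was 140.35 ± 6.57 FPKM in Al and 110.3 ± 6.16 FPKM in control samples, with no overlap (exact permutation p = 0.1).

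H2A.W, the H2A of plant heterochromatin, had 3 genes, of which limma called 0 (0 also at an unadjusted p under 0.05). After the length correction 0 of the 3 were called higher and 2 lower (median -0.272), where 37.4% of all genes were called lower. HTA6 was the most abundant with 59.74, 68.55 and 52.04 FPKM in Al and 65.87, 62.38 and 59.57 FPKM in control samples. HTA7 and HTA12 lay between 28.72 and 42.65 FPKM in all samples, and the 3 log2 fold changes ran from -0.097 to 0.023. Summed H2A.W was 129.32 ± 10.6 FPKM in Al and 134.08 ± 4.94 FPKM in control samples.

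H2A.Z marks the start of many plant genes and is loaded by the SWR1 complex. HTA9 carried most of the class and was lower in Al, with 209.94, 209.49 and 209.33 FPKM against 238.38, 226.96 and 251.66 FPKM in control samples. The Al samples were nearly equal and lay under every control sample, and the log2 fold change was small (-0.19, SE 0.064, adjusted p = 0.0298 by limma). The call was lost in 8 of the 16 refits, among them the leaving out of any sample other than control replicate 2, and the log2 fold change stayed below 0 in all 16. HTA11 was at 24.25 to 27.02 FPKM in Al and 24.71 to 25.80 FPKM in control samples, and HTA8 at 11.79 to 12.66 FPKM in Al and 12.14 to 13.45 FPKM in control samples, with neither called. The length correction called 0 of the 3 tested H2A.Z genes higher and 3 lower (median -0.257), where 37.4% of all genes were called lower. HTA4 was listed at 0, 0.32 and 0.43 FPKM in Al and 0.25, 0.43 and 0.32 FPKM in control samples. The antisense partner of HTA9, AT1G52750, was also lower in Al, at 2.04 to 2.69 FPKM against 6.90 to 7.41 FPKM, and its reads cannot be told apart from those of HTA9.

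Within each sample the shares of the H2A classes shifted together. H2A.Z made up 29.64%, 28.74% and 30.65% of the H2A FPKM in Al, against 34.66%, 35.42% and 37.37% in control samples, a difference of -6.14 percentage points. Canonical H2A made up 38.0 ± 0.568% in Al and 32.7 ± 0.959% in control samples, and H2A.X 16.8 ± 0.57% in Al and 14.2 ± 0.321% in control samples (SD, n = 3 each). H2A.W made up 15.5 ± 0.704% in Al and 17.3 ± 0.656% in control samples. None of the 4 shares overlapped between the groups, each with the smallest exact permutation p, 0.1. These shares add to a fixed total and do not move independently, and unlike the sums they do not depend on how samples are scaled to each other. Weighted by transcript length, the difference in the H2A.Z share was -5.87 percentage points.

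**Figure D3:**
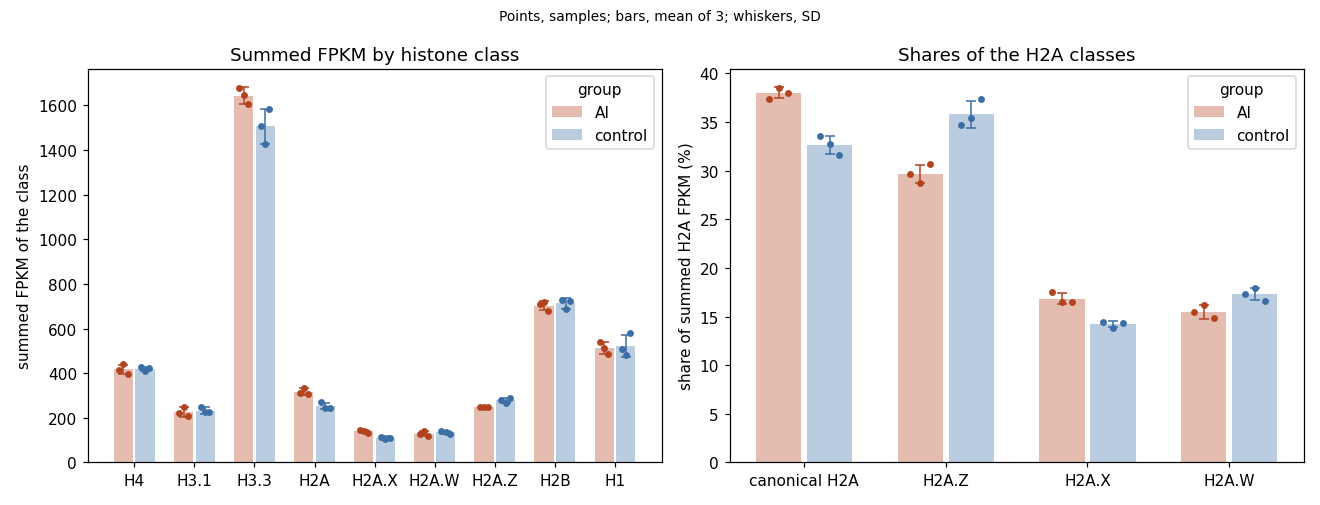
Left, summed FPKM (y axis) of each histone class; right, share of summed H2A FPKM in percent (y axis) held by each H2A class. Al bars stand left of control bars, bars are means of 3, whiskers are SD and points are samples; canonical H2A (316.98 against 253.15 FPKM) and the H2A.Z share (29.7% against 35.8%) show no overlap between the groups, while H4, H3.1, H2A.W, H2B and H1 sums overlap.

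H2B, the partner of H2A, was measured through 9 tested genes, of which 2 rose, 2 fell and 5 were not called. With log2 values corrected for length, 0 of the 9 were called higher and 4 lower (median -0.221), where 37.4% of all genes were called lower. HTB9 was the most abundant, with 195.69, 187.27 and 196.58 FPKM in Al and 217.88, 200.09 and 209.09 FPKM in control samples. It was not called (-0.11, SE 0.063, adjusted p = 0.149), although the Al samples lay under the control samples. HTB9 overlaps the antisense gene AT3G45970, which had 255.12, 179.34 and 171.15 FPKM in Al, against 13.28, 12.50 and 12.28 FPKM in control samples. Since reads of these partners cannot be told apart where strand was ignored, the HTB9 values are uncertain. HTB11, the next in level, lies 15370 bases from HTB9 on chromosome 3 and had 167.80, 169.96 and 158.66 FPKM in Al and 174.11, 168.69 and 173.02 FPKM in control samples.

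HTB4 had 146.03, 158.12 and 148.46 FPKM in Al, against 132.44, 120.48 and 130.98 FPKM in control samples (0.24, SE 0.066, adjusted p = 0.0122 by limma). All Al samples were above all control samples. HTB2 had 72.46, 75.37 and 63.69 FPKM in Al and 81.23, 83.85 and 77.18 FPKM in control samples, a small fall just inside the threshold (-0.20, SE 0.076, adjusted p = 0.0482). AT2G37470 had 22.69, 25.94 and 26.16 FPKM in Al and 30.32, 28.23 and 31.12 FPKM in control samples (-0.25, SE 0.077, adjusted p = 0.0179). AT3G09480 was near the bottom of the range, with 3.05, 3.76 and 3.07 FPKM in Al and 2.07, 2.32 and 2.86 FPKM in control samples, which is an estimated 32 to 58 fragments. It passed the threshold (0.33, SE 0.12, adjusted p = 0.0394) and lost the call on leaving out any sample other than control replicate 3. Leaving out samples also ended the call of HTB2 in 4 of 6 cases, of AT2G37470 in 3 and of HTB4 in 2.

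AT3G53650, the tested H2B gene with the largest SE of the log2 fold change, had 8.52, 9.72 and 4.91 FPKM in Al and 6.17, 4.41 and 4.55 FPKM in control samples. Al replicate 3 lay among the control samples, and the log2 fold change of 0.50 (SE 0.21, adjusted p = 0.0671) did not pass the threshold; without that sample it was called. HTB1 and AT2G28720 were at 32.29 to 50.42 FPKM with overlapping groups, and AT1G08170 was listed at 0 in 4 of the 6 samples and at 0.05 in the others. The H2B sum was 703.07 ± 22.0 FPKM in Al and 712.52 ± 23.8 FPKM in control samples. Among the 7 tested H2B genes with a hexamer in the window limma called 0 higher and 2 lower (1 higher at an unadjusted p under 0.05), and the 2 without it, HTB4 and AT3G09480, were both called higher. These counts are too small for a comparison, and the 250 bases before HTB4 and AT3G09480 lie partly in another gene.

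H1, the linker histone, had 3 genes, of which limma called 0 (1 higher at an unadjusted p under 0.05, AT1G06760). HIS1-3, known as the stress-inducible H1, had 233.50, 202.70 and 192.07 FPKM in Al and 222.47, 196.99 and 269.76 FPKM in control samples. Its control samples spread more than its groups differed (-0.13, SE 0.12, adjusted p = 0.381). AT1G06760 had 182.93, 187.53 and 172.10 FPKM in Al and 161.49, 162.54 and 164.56 FPKM in control samples, with no overlap but a p just above the threshold (0.15, SE 0.061, adjusted p = 0.0585). AT2G30620 was at 122.96 to 124.52 FPKM in Al and 122.45 to 143.64 FPKM in control samples. Summed H1 was 514.17 ± 26.7 FPKM in Al and 523.02 ± 49.5 FPKM in control samples.

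Over all 42 measured histone genes the summed level was 4400.81, 4436.68 and 4179.96 FPKM in Al and 4220.78, 3975.85 and 4308.09 FPKM in control samples. The groups overlapped (exact permutation p = 0.3). The histone genes made up 0.634 ± 0.0239% of the summed FPKM of all genes in Al and 0.639 ± 0.0271% in control samples (SD, n = 3 each). Al replicate 3 had the lowest Al sum in 8 of the 9 classes, the exception being H2A.Z. Groups did not overlap in 16 of the 40 tested genes, 9 higher and 7 lower in Al, where 66.3% of all genes tested did not overlap, 23.3% higher and 42.9% lower. Of the 10 tested genes with an octamer limma called 2 higher and 0 lower (3 and 0 at an unadjusted p under 0.05), with a median log2 fold change of 0.13, and of the 30 without it 5 were higher and 6 lower, with a median of -0.064. Neither of these was compared by a test. The share called higher among the genes with an octamer was close to the 21.3% of all genes tested. Of all genes tested, 38.5% were called lower.

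The genes that work with histones were described from lists of chaperones, SWR1 subunits, replication, E2F-RBR and G2-M genes. In the DNA replication list, limma called 0 of the 28 tested genes higher and 20 lower (0 and 20 also at an unadjusted p under 0.05), with a median log2 fold change of -0.57. The 20 were 71.4% of those tested, where 38.5% of all genes tested were called lower. PCNA1, a sliding clamp of the replication fork, had 5.90, 7.45 and 6.77 FPKM in Al, against 11.70, 11.17 and 9.53 FPKM in control samples. RNR1, the large subunit of ribonucleotide reductase that makes DNA precursors, had 6.67, 8.73 and 7.30 FPKM in Al, against 14.94, 15.39 and 15.95 FPKM in control samples. Neither gene's groups overlapped, whereas the H4 and H3.1 sums of the same samples did. Over all genes tested, 66.3% did not overlap, 42.9% lower in Al. The length correction, not run on sums, called 0 of the 8 H4 genes higher and 4 lower (median -0.261). It called 0 of the 5 H3.1 genes higher and 3 lower (median -0.239), where 37.4% of all genes were called lower. LIG1, a DNA ligase, was not called, with 9.44 to 11.36 FPKM in Al and 10.96 to 11.28 FPKM in control samples.

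Of the 17 G2-M genes, 1 was called higher and 15 lower, with a median of -0.73. The 15 were 88.2% of the list, where 38.5% of all genes tested were called lower. CYCB1;1, a mitotic cyclin, had 1.58, 1.90 and 1.41 FPKM in Al, against 3.35, 3.89 and 3.48 FPKM in control samples. CDKB2;1, a plant mitotic kinase, had 11.76, 15.28 and 13.62 FPKM in Al, against 20.74, 19.28 and 19.39 FPKM in control samples. Of the 9 E2F-RBR genes, which govern entry into S phase, 1 was called higher and 4 lower, with a median of -0.24. The 44.4% of this list called lower was near the 38.5% of all genes tested. Median-ratio scaling gave 1 higher and 0 lower in this list, and with 1 sample left out 0 or 1 were higher and 1 to 4 lower, with 1 lower without Al replicate 3 or control replicate 3 and 2 without control replicate 1 or control replicate 2. RBR1, the retinoblastoma homologue, was at 8.64 to 9.80 FPKM in Al and 10.90 to 12.78 FPKM in control samples (adjusted p = 0.0137), a call that was lost after the length correction and after median-ratio scaling. E2FB, an activating E2F, was at 5.74 to 6.74 FPKM in Al and 5.35 to 5.84 FPKM in control samples and was not called. E2F3 (AT2G36010) was at 2.05 to 2.49 FPKM in Al and 2.53 to 3.20 FPKM in control samples. Its groups did not overlap, and E2F3 was not called (-0.25, adjusted p = 0.0815 by limma). The medians of the replication and G2-M lists stayed lower than that of the histone genes after the correction for length, at -0.50 and -0.65 beside -0.20. After that correction the medians of the other lists lay close to that of the histone genes, at -0.18 for the chaperones, -0.175 for the SWR1 complex and -0.22 for the E2F-RBR genes. These lists and the histone genes were set side by side without a test.

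**Figure D4:**
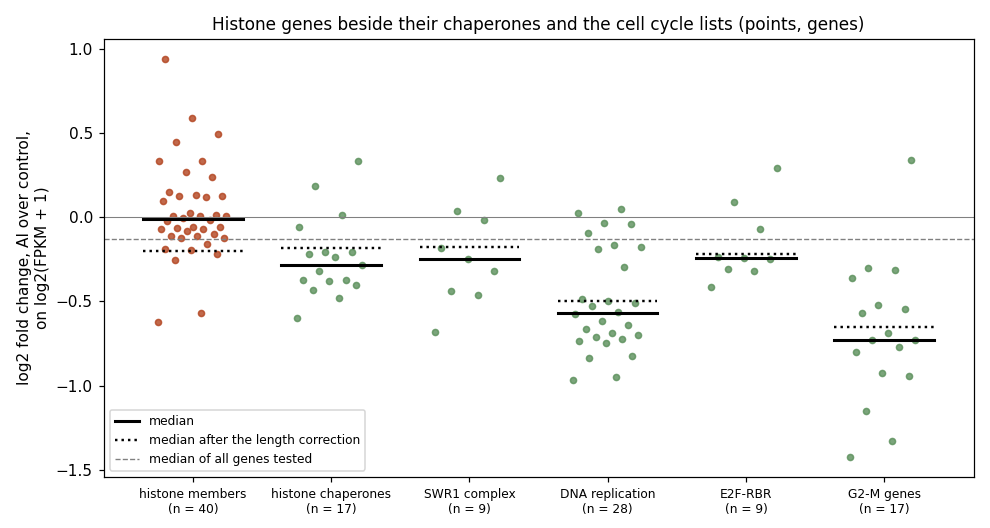
Log2 fold change (y axis, Al over control, on log2(FPKM + 1)) of each tested gene in the histone list and in 5 lists of related genes (x axis); points are genes, solid bars are medians, dotted bars are medians after the length correction, and the dashed line is the median of all genes, -0.13. The histone median is -0.012 and those of the replication and G2-M lists are -0.57 and -0.73; after the length correction the histone median is -0.20, with the chaperone and SWR1 medians slightly above it at -0.18 and -0.175.

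Histone chaperones carry histones from synthesis to DNA, and of 17 tested 2 were called higher and 11 lower, with a median of -0.29. The lower calls numbered 6 of 17 after the length correction (median -0.18) and 7 after median-ratio scaling. With 1 sample left out they numbered 6 to 9, with 6 without Al replicate 3 and 7 without control replicate 2 or control replicate 3. Over all genes tested, 21.3% were called higher and 38.5% lower. The share of all genes called lower was 37.4% after the length correction and 27.0% after median-ratio scaling. FAS1 and FAS2 belong to CAF-1, which loads H3.1 and H4 at the fork. FAS1 had 2.22, 2.14 and 1.70 FPKM in Al, against 2.62, 2.97 and 3.64 FPKM in control samples, and FAS2 was lower too (adjusted p = 0.0269). The call was lost in 3 of the 16 refits for FAS1 (the length correction, and without Al replicate 3 or control replicate 3) and in 6 for FAS2, among them those without Al replicate 3, control replicate 1 or control replicate 2. MSI1, the third CAF-1 subunit, which also serves in other complexes, had 25.15, 27.56 and 24.45 FPKM in Al against 22.58, 21.74 and 23.14 FPKM in control samples, just past the threshold (adjusted p = 0.0452). That call was lost in 8 of the 16 refits, among them the leaving out of any sample other than Al replicate 3. ASF1A, which hands H3-H4 to other chaperones, had 31.86, 31.29 and 32.62 FPKM in Al, against 25.34, 23.54 and 26.64 FPKM in control samples (adjusted p = 0.00238), while its relative ASF1B was not called. HIRA, which loads H3.3, was at 5.02 to 5.48 FPKM in Al and 6.10 to 6.43 FPKM in control samples (adjusted p = 0.0369). The HIRA call was lost in 11 of the 16 refits, with the sign turned by the length correction (0.0451). NAP1;1, an H2A-H2B chaperone, was at 83.14 to 101.86 FPKM in Al and 115.01 to 136.45 FPKM in control samples (adjusted p = 0.00473). Its more abundant relative NAP1;2 was also called lower (adjusted p = 0.0279 by limma), a call lost in 7 of the 16 refits. NAP1;3 was not called (adjusted p = 0.916 by limma).

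In the SWR1 complex, which exchanges H2A for H2A.Z, limma called 0 of 9 tested genes higher and 6 lower (0 and 6 also at an unadjusted p under 0.05), with a median of -0.25. Median-ratio scaling gave 2 higher and 3 lower (median -0.11), the length correction gave 0 and 3 (median -0.175), and without control replicate 3 there were 0 and 4. PIE1, its catalytic subunit, had 3.61, 3.27 and 2.97 FPKM in Al, against 5.06, 5.83 and 6.83 FPKM in control samples (adjusted p = 0.000921 by limma), a call that was lost after the length correction. ARP6 had 18.62, 19.66 and 20.07 FPKM in Al, against 28.16, 25.24 and 26.82 FPKM in control samples (adjusted p = 0.000587 by limma). PIE1 and ARP6 were called lower, as was the H2A.Z gene HTA9, whose call was lost in 8 of the 16 refits. Of all genes tested, 38.5% were called lower, and a link between these genes was not tested. AT2G47210, the most abundant subunit after ARP4, was not called, with 25.55 to 27.75 FPKM in Al and 25.69 to 27.15 FPKM in control samples.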

How the data were processed

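RNA-seq of root tips was analysed in 3 Al and 3 control samples, grouped and numbered by their labels. The authors deposited FPKM values per gene and sample, normalized for transcript length and mapped fragments, with replicates kept apart. Aligner, counting tool, annotation, strand and test are not given in the sources used here. The labels give cDNA primed at random from total RNA and name no selection of poly(A) RNA. A deposited log2 ratio, p-value and q-value of the authors' own comparison, and 6 further per-sample columns that repeat the FPKM, were not used.

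Log2(FPKM + 1) was fitted in limma 3.58.1 (R 4.3.3) with a mean-variance trend and no covariate, over the 18463 of 24379 genes that reached an FPKM of 1 in 3 or more samples. Benjamini-Hochberg adjustment covered all genes tested, and calls were made at an adjusted p under 0.05. Sums and shares were compared by exact two-sided permutation, with a smallest p of 0.1. The sequencing depth was inferred from the spacing of low values. At this depth 86.6% to 89.4% of low values came within 0.15 of a whole fragment number, against 30.0% by chance, and the estimate covers counting error only. Genome TAIR10.1 from RefSeq gave the sequences and gene models, with 23857 of 24174 genes at equal start and end. Shared sequence is the percentage of 50-base stretches found in another gene's transcript.

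Histone genes and all lists were chosen with earlier results of these data known. All 43 histone genes may be named. Of the other lists, the up to 4 genes highest in mean FPKM and a fixed set of defining genes may be named. Overlapping partners of histone genes were named whatever their values. Alternatives were a pseudocount of 0.1, other filters, a replicate block, GC and length corrections by loess (span 0.3), 3 scalings, no trend, stricter thresholds and each sample left out. Scripts ran under Python 3.11.15 with scipy 1.17.1 for permutations, Biopython 1.88 for sequences, pandas 2.3.3 and numpy 2.4.6 for tables and matplotlib 3.10.9 for plots.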

Additional observations from a re-analysis of the deposited data

How the results depend on the processing

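The 13 histone calls were 7 higher and 6 lower. Correction for transcript length gave 3 higher and 18 lower, median-ratio scaling 14 and 2, and quantile normalization 6 and 11, with medians of -0.202, 0.132 and -0.0636. TPM scaling gave 5 higher and 8 lower with a median of -0.0785. Of all genes tested, quantile normalization called 22.6% higher and 36.9% lower, and TPM scaling 18.6% and 44.2%. The length correction called 21.0% and 37.4% of all genes, and median-ratio scaling 29.1% and 27.0%. The median of all genes was -0.129 as deposited, -0.13 after the length correction, -1.24e-05 after median-ratio scaling, -0.197 after TPM scaling and -0.104 after quantile normalization. At an adjusted p under 0.01, 4 histone genes were higher and 2 lower (45.0% of all genes were called), and with a log2 change of 0.5 or more required, 2 were higher and 2 lower (30.5% of all genes). Leaving out 1 sample at a time gave 4 to 8 higher and 2 to 4 lower. HTA2 was called lower after the length correction (-0.202), against an uncalled 0.0082. Uncalled genes changed sign in 8 cases under the length correction, 14 under median-ratio scaling, and 5 each under TPM scaling and quantile normalization.

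Among class sums, median-ratio scaling turned the log2 ratio to 0.139 for H4, 0.109 for H3.1, 0.0923 for H2A.W, 0.127 for H2B and 0.123 for H1. Quantile normalization turned it to -0.0114 for H3.3 and -0.0431 for all histone genes, and TPM scaling to -0.00959 for all. With 1 sample left out it ranged from -0.0448 to 0.0257 for H4, -0.112 to 0.0287 for H3.1, -0.115 to 0.00335 for H2A.W, -0.0465 to 0.00605 for H2B and -0.0801 to 0.0532 for H1. Median-ratio scaling, TPM scaling, quantile normalization and leaving out 1 sample were the alternatives run on sums and shares. In all of these the sums of canonical H2A, H2A.X and H2A.Z and the shares of H2A.Z and H3.1 kept their direction. The length correction was not run on sums or shares. Among single genes it took the median of canonical H2A from 0.194 to -0.0258. The medians kept their sign for H2A.X (0.298 to 0.128) and H2A.Z (-0.0699 to -0.257).

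Replicate numbers showed no pairing of the samples: deviations of same-numbered samples correlated at -0.251, -0.0366 and -0.224 across genes. Because deviations were taken from the mean of only 3 samples per group, these values cannot show that the samples were unpaired. No Al sample correlated best with the control sample of its own number. With the replicate number as a block, limma called 7 histone genes higher and 4 lower. Over all genes it called 3648 higher and 6319 lower with the block, against 3933 and 7106 without it. With the block and a GC correction, 6 histone genes were higher and 5 lower. The block gave 1 higher and 7 lower among the chaperones and 0 and 2 among the E2F-RBR genes, and the block with the GC correction 0 and 3 in the SWR1 complex.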
